A study of Mus musculus with 27 samples.

Results

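The CC chemokines described here were 10 secreted ligands, *Ccl2*, *Ccl3*, *Ccl4*, *Ccl5*, *Ccl6*, *Ccl7*, *Ccl8*, *Ccl9*, *Ccl17* and *Ccl22*, whose transcripts were measured in 3 myeloid populations sorted from the inflamed mouse colon. A probe was a member where its symbol in the deposited intensity table equalled 1 of the listed genes. Of the 10 genes, 9 had a probe, which gave 11 of the 45281 probes on the array. *Ccl4* and *Ccl7* had 2 probes each, and no probe carried the symbol *Ccl8*. The question addressed was whether loss of *Mbd2*, which encodes a protein that binds methylated CpG dinucleotides in DNA, alters gene expression in each of these populations during colitis.

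The mice of the colon arrays were on a C57BL/6 background and 8 to 22 weeks old. They received 2% dextran sodium sulfate (DSS), which injures the colon epithelium, in drinking water for 6 days. *Mbd2*-/- mice lacked the gene in every cell and WT mice were littermates, co-housed where possible. Monocytes (CD11b+Ly6C+), macrophages (CD11b+Ly6C-MHC-II+F4/80+) and cDC1s (CD11b-CD11c+CD103+, labelled CD11bnegDC) were sorted from the colon lamina propria through a CD45+Ly6G-Siglec-F- gate. Monocytes and macrophages were each measured on 5 WT and 5 *Mbd2*-/- arrays and cDC1s on 2 WT and 3 *Mbd2*-/- arrays, which made 25 of the 27 arrays of the series. Each array held RNA pooled from 1 to 10 mice per the methods and from 1 to 5 per the deposited record, so the spread between arrays is the spread between pools. No colon group had mice without DSS, so levels in these groups were measured only in colitis. Arrays are named below by the number in their label.

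CC chemokines are small secreted proteins that bind G protein-coupled receptors on leukocytes and set up gradients along which these cells migrate. *Ccl2* and *Ccl7* (monocyte chemoattractant proteins) act mainly through Ccr2 and draw monocytes out of the bone marrow and into inflamed tissue, including the colon. *Ccl3*, *Ccl4* and *Ccl5* draw monocytes, T cells and natural killer cells, *Ccl6* and *Ccl9* are rodent ligands of Ccr1, and *Ccl17* and *Ccl22* are ligands of Ccr4, which is carried by T cell subsets and is a classical target of dendritic cell chemokines.

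Most of these genes lie side by side. In the order of the RefSeq annotation of mouse assembly GRCm38.p6, *Ccl2* and *Ccl7* were neighbours on chromosome 11, *Ccl5*, *Ccl9*, *Ccl6*, *Ccl3* and *Ccl4* followed each other there, and *Ccl22* and *Ccl17* lay on chromosome 8 with only *Cx3cl1* between them. Sequence around the gene start, from 250 bases before it to 50 bases after it, was available for 6 of the 10 members, *Ccl3*, *Ccl6*, *Ccl8*, *Ccl9*, *Ccl17* and *Ccl22*. Of the 15 pairs among them, *Ccl6* and *Ccl9* had the best local alignment, with 59 of 74 columns identical (79.7%). These neighbours were also the members that differed most between cDC1s and monocytes, and their windows are printed for that reason, in the direction of transcription. The *Ccl6* window spans chr11:83593038-83593337 and the *Ccl9* window chr11:83578587-83578886, both on the minus strand of GRCm38.p6. Capitals mark the 4 identical runs of at least 8 bases that both share, 42 bases in all, of which the longest is 13 bases.
Ccl6: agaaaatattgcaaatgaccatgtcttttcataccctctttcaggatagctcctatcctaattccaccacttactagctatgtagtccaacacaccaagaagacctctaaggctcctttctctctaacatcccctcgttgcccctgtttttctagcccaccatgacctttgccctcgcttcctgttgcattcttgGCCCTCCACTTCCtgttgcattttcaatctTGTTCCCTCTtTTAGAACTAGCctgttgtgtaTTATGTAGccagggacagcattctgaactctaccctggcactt
Ccl9: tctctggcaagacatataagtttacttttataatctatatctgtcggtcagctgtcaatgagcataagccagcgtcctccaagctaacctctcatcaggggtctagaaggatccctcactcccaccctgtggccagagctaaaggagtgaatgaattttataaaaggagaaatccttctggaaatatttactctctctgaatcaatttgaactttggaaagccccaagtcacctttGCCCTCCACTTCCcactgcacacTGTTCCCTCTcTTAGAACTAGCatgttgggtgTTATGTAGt
In both windows the longest shared run holds the letters GGAAGT on the opposite strand, the flanked core of the ETS family motif. In the printed direction the match reads ACTTCC, and the first base of ACTTCC lies 48 bases before the start of *Ccl6* and 7 bases before that of *Ccl9*. This is a description of letters and not of binding, since 23.8% of 32851 windows of the same length held GGAAGT on either strand. The same letters occurred once each in the windows of *Ccl3* and *Ccl22*. The AP-1 letters TGANTCA occurred in the window of *Ccl9* alone among the 6 members, the GAS letters TTCNNNGAA in that of *Ccl17* alone, and the C/EBP letters TTGCNNCAA in none. Over all windows, both strands searched, these 3 motifs were held by 7.81%, 8.3% and 2.08%.

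*Ccl17*, the member with the opposite pattern across the cell types, is printed to show its CpG dinucleotides, the context that Mbd2 binds when methylated. Its window spans chr8:94810203-94810502 on the plus strand of GRCm38.p6, and capitals mark CG.
Ccl17: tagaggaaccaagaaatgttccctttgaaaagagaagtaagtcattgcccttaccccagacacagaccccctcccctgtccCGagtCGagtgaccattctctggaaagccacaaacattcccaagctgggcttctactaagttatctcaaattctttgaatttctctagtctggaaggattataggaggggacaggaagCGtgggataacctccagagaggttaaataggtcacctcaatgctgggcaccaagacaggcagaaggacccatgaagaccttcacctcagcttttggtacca
This window held 3 CpG dinucleotides. *Ccl3* also had 3, *Ccl6*, *Ccl8* and *Ccl9* had 2 each and *Ccl22* had 8, where the median over all 32851 windows was 7 and the quartiles were 3 and 20. Methylation was not measured on these arrays.

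The sorted cells carried the markers of their labels. Over the listed cDC1 markers (among them *Xcr1*, *Clec9a* and *Irf8*) the summed linear value was 14400 to 16900 on cDC1 arrays and 1260 to 2630 elsewhere. The macrophage list (among them *C1qa*, *Mrc1* and *Cd163*) summed to 43200 to 51000 in macrophages, 14900 to 19400 in monocytes and 4300 to 6490 in cDC1s, and the monocyte list to 16100 to 27800 in monocytes and 5020 to 9850 elsewhere. *Ccr2*, a defining monocyte gene, was detected on 1 of 10 monocyte arrays. T cell markers stood out in the cDC1 sort, where the sum over 7 probes was 422 to 2800, compared with 262 to 621 in all other groups. Natural killer cell markers (5 probes) summed to 681 to 1840 in cDC1s and 168.5 to 465.8 elsewhere, and mast cell markers (5 probes) to 1730 to 2220 and 205 to 492, both without overlap, with 2 to 4 of the 5 detected on each cDC1 array. Epithelial markers (8 probes) summed to 4200 to 15800 in cDC1s and 4530 to 15500 in the other populations, with at least 7 detected on every array. All 6 stromal markers were also detected on every array, so epithelial and stromal transcripts were not particular to the cDC1 sort. The probe of *Mbd2* itself was detected on none of the 25 arrays, so the labels could not be checked through it. Mean intensity per array was 172 to 353, and 16024 to 18608 probes were detected, at a detection p under 0.05 against negative control probes.

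All values below are background corrected, quantile normalized log2 intensities, on which 1 unit is a doubling and the lowest value of any probe was 4.14. A member with 2 probes is given by its brighter probe, and since probes differ in how brightly they report, levels are compared between arrays and never between genes. *Ccl2*, *Ccl3*, *Ccl4*, *Ccl5*, *Ccl6*, *Ccl7*, *Ccl9* and *Ccl17* were detected on all 25 arrays. *Ccl22* ran from 4.23 to 5.33 and was detected on 0 of 10 monocyte, 2 of 10 macrophage and 2 of 5 cDC1 arrays. Member values rested on 18 to 65 beads each (median 39), with a standard error between beads of 2.1% to 7.84% of the intensity (median 3.62%). The highest member intensity was 14379.5, for *Ccl9*, below the 23918.8 reached by the brightest probe on these arrays.

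**Figure D1:**
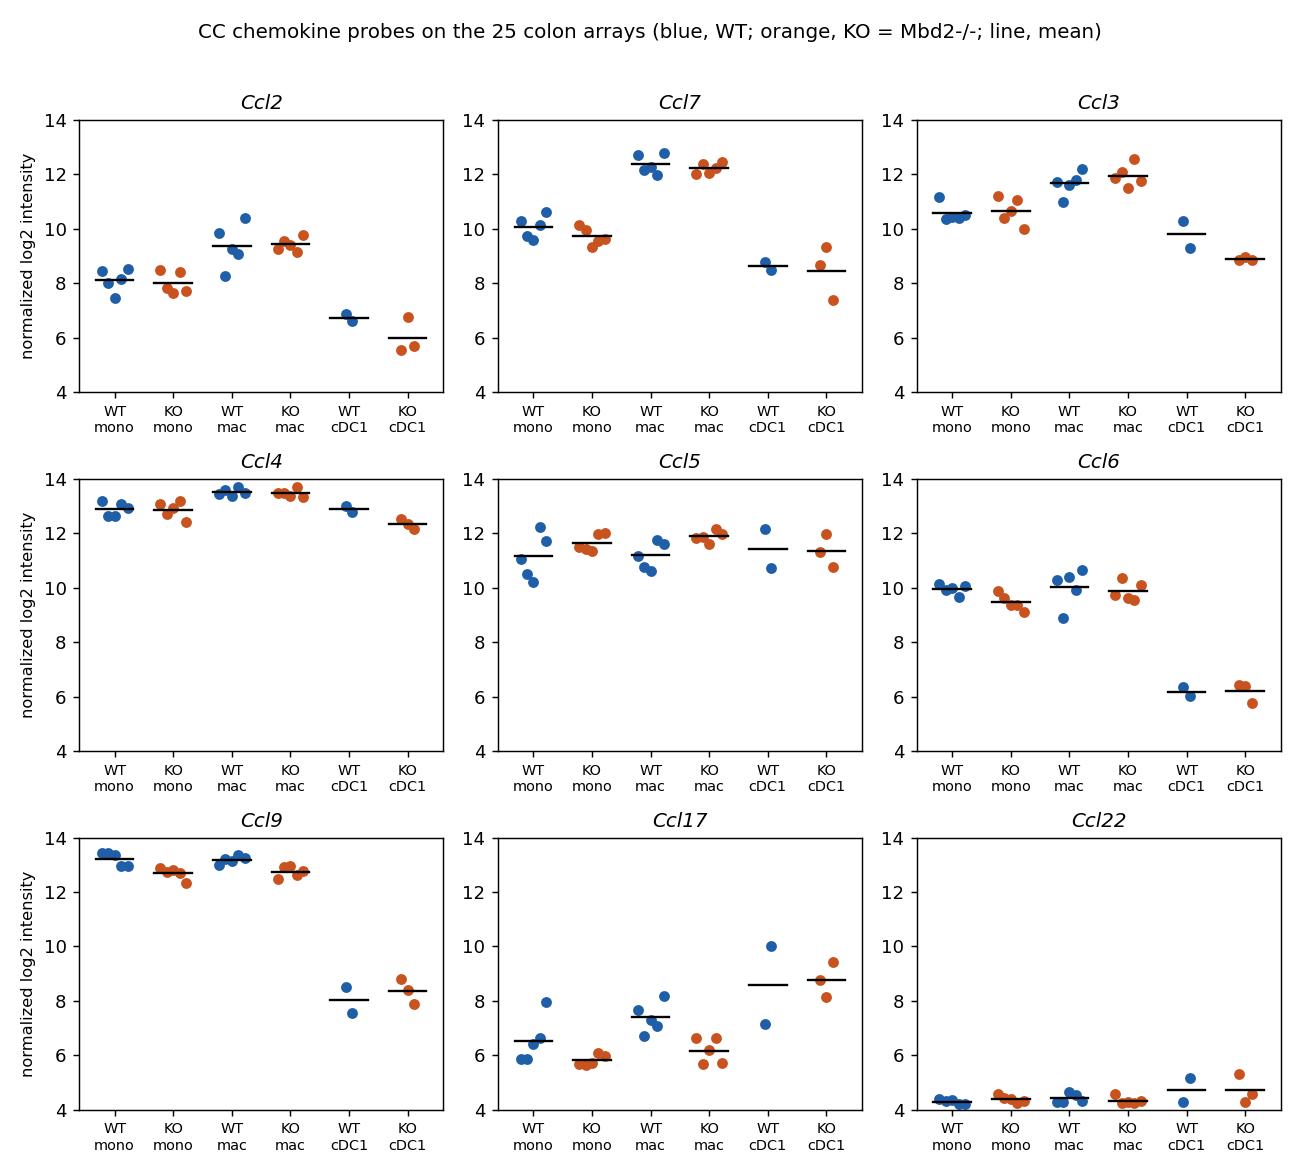
Normalized log2 intensity of the 9 CC chemokines with a probe, 1 panel each, by cell type and genotype, with 1 point per array and a bar at the group mean. *Ccl6* and *Ccl9* sit far lower on the 5 cDC1 arrays than on all 20 others, *Ccl7* is highest on the 10 macrophage arrays, and the highest values of *Ccl17* lie on cDC1 arrays, as do those of *Ccl22*, which is near background.

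The first comparisons asked how the ligands differed between the 3 populations, each taken as the mean of its WT and *Mbd2*-/- groups. A member passed where its limma p, adjusted over all probes tested in that comparison, was under 0.05. Macrophages had more *Ccl2*, *Ccl3*, *Ccl4* and *Ccl7* than monocytes, so that 4 of the 8 members tested passed, all of them higher. Over all genes tested, 40.0% passed in either direction and 22.7% were higher. Against monocytes, cDC1s differed in 6 of 8 members, with *Ccl17* higher and *Ccl2*, *Ccl3*, *Ccl6*, *Ccl7* and *Ccl9* lower, where 53.9% of all genes passed (27.3% higher and 26.6% lower). Against macrophages, cDC1s differed in 7 of 8, with *Ccl17* higher and *Ccl4* added to those that were lower, where 53.2% of all genes passed (26.0% higher and 27.1% lower). The 3 comparisons share arrays and are not independent of each other. The 4 members whose cell types did not overlap between cDC1s and monocytes were *Ccl2*, *Ccl6*, *Ccl7* and *Ccl9* (27.1% of all genes did not overlap). Between cDC1s and macrophages there were 6 such members (22.6% of all genes), and between macrophages and monocytes 2, *Ccl4* and *Ccl7* (8.39% of all genes). These counts use the brighter probe. By the dimmer probes, *Ccl7* overlapped between cDC1s and monocytes, and *Ccl4* in both comparisons with macrophages. *Ccl22* missed the detection filter in all 3 and was not tested.

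The median difference over the 8 members was 0.61 for macrophages minus monocytes, -1.32 for cDC1s minus monocytes and -2.75 for cDC1s minus macrophages, where the median over all genes tested was 0.02, -0.03 and -0.04. As these are bulk measurements of sorted pools, a smaller share of cells that express a gene and less transcript per cell cannot be told apart. The array columns of the deposited table were also read in sets of 6, the number of arrays on a chip of this type, since no chip or scan is named. All monocytes lay in the sets numbered 1 and 2 and all macrophages in those numbered 3 and 4. A difference between these column sets and the difference between monocytes and macrophages cannot be told apart. Each of these sets also held 1 cDC1 array, and its difference from the 5 other arrays of its set is given beside the results on cDC1s for each member tested. The cDC1 arrays in sets 1 and 2 were WT (arrays 23 and 26) and those in sets 3 and 4 *Mbd2*-/- (arrays 27 and 28), while array 30 lay in none of these. Within column sets, differences from monocytes are thus those of WT cDC1s and differences from macrophages those of *Mbd2*-/- cDC1s, so genotype is not balanced in them.

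**Figure D2:**
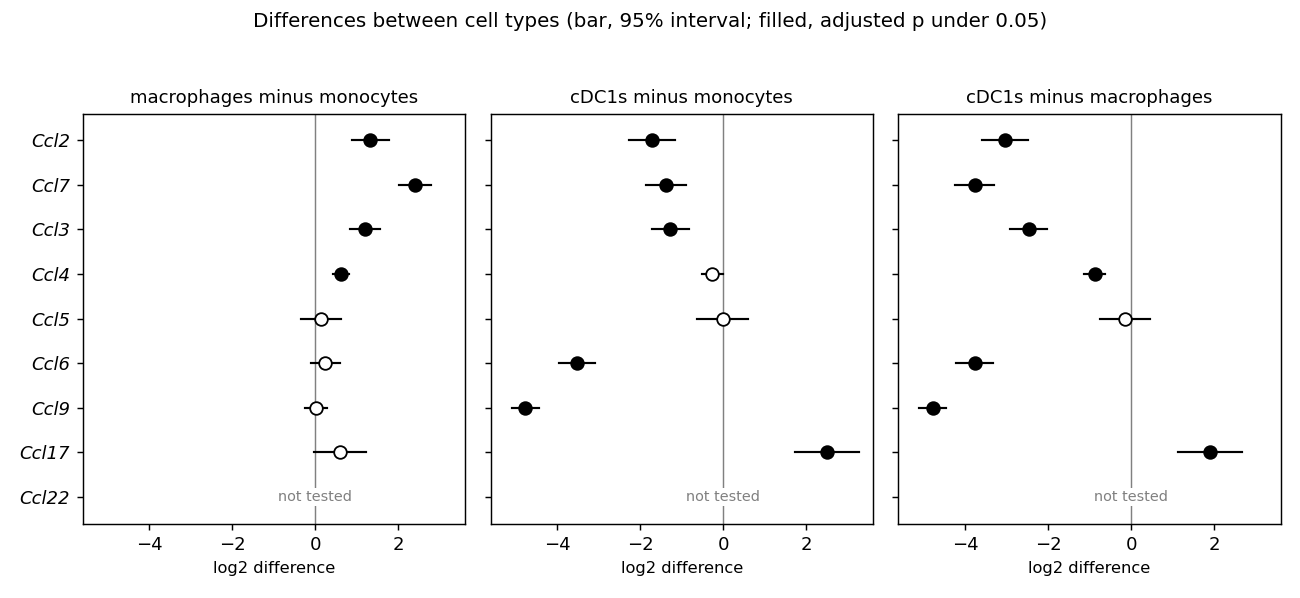
Log2 difference of each CC chemokine between cell types (points, with bars for the 95% interval; filled where the adjusted p was under 0.05), with 1 panel per comparison. *Ccl7* has the largest difference between macrophages and monocytes (2.40), while *Ccl9* lies near 0 there and is the lowest member in cDC1s against either population (-4.77 and -4.78).

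Among the monocyte chemoattractants, *Ccl7* showed the clearest gradation over the 3 populations. It ran from 9.35 to 10.63 on the 10 monocyte arrays (median 9.86) and from 11.98 to 12.79 on the 10 macrophage arrays (median 12.25), while the cDC1 arrays read 8.77 and 8.48 in WT and 8.66, 9.32 and 7.39 in *Mbd2*-/-. By this probe the ranges of the 3 cell types did not overlap, with 9.32 and 9.35 as the nearest arrays of cDC1s and monocytes. By the other probe, cDC1s (highest 9.32) overlapped monocytes (lowest 9.26), and macrophages stood apart from both. *Ccl7* was 5.27-fold higher in macrophages than in monocytes (log2 difference 2.40, SE 0.19, 95% interval 2.01 to 2.78, limma adjusted p = 5.16e-10), and its other probe gave 2.41. In cDC1s it was 2.59-fold lower than in monocytes (adjusted p = 2.39e-05) and 13.6-fold lower than in macrophages (adjusted p = 2.11e-12). Within the column sets that held macrophages, the cDC1 array differed from them by -3.71 and -2.93, and within 1 of those that held monocytes by -1.57, with a smaller difference of the same sign in the other.

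*Ccl2*, the main ligand of Ccr2, followed the same order with more spread. Its values were 7.45 to 8.53 in monocytes (median 8.10) and 8.26 to 10.38 in macrophages (median 9.32), and these ranges overlapped through 1 low WT macrophage array (8.26, array 12). The cDC1 arrays lay below both, at 6.86 and 6.60 in WT and 5.53, 6.76 and 5.70 in *Mbd2*-/-. *Ccl2* was 2.50-fold higher in macrophages than in monocytes (log2 difference 1.32, SE 0.22, adjusted p = 3.52e-05). It was 3.27-fold lower in cDC1s than in monocytes (adjusted p = 9.97e-06) and 8.17-fold lower than in macrophages (adjusted p = 1.5e-09). Within column sets the cDC1 array differed by -1.15 and -1.52 from monocytes and by -3.73 and -2.77 from macrophages. Once the group means were removed, *Ccl2* and *Ccl7* still moved together over the 25 arrays (r = 0.67), as did *Ccl2* and *Ccl6* (r = 0.69). These values are a description, since the arrays may not be independent of each other.

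No probe carried the symbol *Ccl8*, which encodes monocyte chemoattractant protein 2. A probe with the symbol *LOC100048554*, which the array annotation describes as similar to MCP-2, lay outside the rule and was looked at after the members' values were known. It followed *Ccl7*, at 2.72 for macrophages minus monocytes, -1.29 for cDC1s minus monocytes and -4.02 for cDC1s minus macrophages. Whether this probe reads *Ccl8* was not tested.

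*Ccl3* and *Ccl4*, which encode the alpha and beta forms of macrophage inflammatory protein 1, were also highest in macrophages, and *Ccl3* was lower in cDC1s than in monocytes. *Ccl3* ran from 9.99 to 11.19 in monocytes (median 10.46) and from 10.99 to 12.55 in macrophages (median 11.79), against 10.30 and 9.30 in WT cDC1s and 8.86, 8.97 and 8.85 in *Mbd2*-/- cDC1s. Only the WT cDC1 array at 10.30 (array 23) lay within the monocyte range. *Ccl3* was 2.29-fold higher in macrophages than in monocytes (log2 difference 1.19, SE 0.18, adjusted p = 9.69e-06). In cDC1s it was 2.41-fold lower than in monocytes (adjusted p = 3.22e-05) and 5.52-fold lower than in macrophages (adjusted p = 1.54e-09). The difference from monocytes was -0.30 and -1.33 within the 2 column sets, so it was uneven between them, and that from macrophages was -2.87 and -2.93.

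*Ccl4* ran from 12.42 to 13.18 in monocytes (median 12.93) and from 13.33 to 13.70 in macrophages (median 13.48), with no overlap by this probe. On the cDC1 arrays it read 13.01 and 12.76 in WT and 12.52, 12.35 and 12.16 in *Mbd2*-/-. It was 1.53-fold higher in macrophages than in monocytes (log2 difference 0.62, SE 0.10, adjusted p = 2.28e-05; other probe 0.85) and 1.84-fold lower in cDC1s than in macrophages (adjusted p = 1.62e-06). Within column sets the cDC1 array differed from macrophages by -0.96 and -1.15. By the other probe, macrophages (lowest 11.53) overlapped monocytes (highest 11.68) and cDC1s (highest 11.62). Between cDC1s and monocytes the difference of -0.26 did not pass (adjusted p = 0.0713), and the other probe gave -0.16 (adjusted p = 0.471). Within column sets this difference changed sign, at 0.20 and -0.18, and it was 0.54 and 0.053 by the other probe. WT cDC1s (mean 12.89) lay level with WT monocytes (12.89) and *Mbd2*-/- monocytes (12.86), and *Mbd2*-/- cDC1s (12.34) lay below. Whether the difference between cDC1s and monocytes passed depended on single arrays and on scaling. It passed without WT monocyte array 2 (-0.30, adjusted p = 0.0455), without WT monocyte array 3 (-0.30, adjusted p = 0.0452) and without *Mbd2*-/- monocyte array 10 (-0.32, adjusted p = 0.0193), and with median scaling it was -0.72 (adjusted p = 0.000962). *Ccl3* and *Ccl4*, which are neighbours, moved together over the arrays once group means were removed (r = 0.65).

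*Ccl5* (RANTES), a chemoattractant of T cells and monocytes that T cells and natural killer cells also make, was the tested member with no difference past the test between any of the populations. It ran from 10.21 to 12.24 in monocytes (median 11.46), from 10.63 to 12.17 in macrophages (median 11.69), and read 12.14 and 10.72 in WT and 11.29, 11.97 and 10.76 in *Mbd2*-/- cDC1s. The 3 ranges overlapped almost entirely. The difference of cDC1s from monocytes was -0.01 (95% interval -0.62 to 0.59, adjusted p = 0.975) and from macrophages -0.15 (95% interval -0.76 to 0.46, adjusted p = 0.688), and that between macrophages and monocytes was 0.14 (95% interval -0.35 to 0.63, adjusted p = 0.691). Within column sets the cDC1 array differed from monocytes by 0.98 and -0.92 and from macrophages by -0.054 and 0.25, so the sign changed in both. Differences inside these intervals were not detectable with this number of arrays.

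The *Ccl5* level in cDC1s moved with markers of T cells and natural killer cells. The sum over the 7 T cell probes was 2802 on WT array 23 and 2305 on *Mbd2*-/- array 28, where *Ccl5* was highest at 12.14 and 11.97. It was 1179 on *Mbd2*-/- array 27 (*Ccl5* 11.29), 664.2 on WT array 26 (*Ccl5* 10.72) and 422.5 on *Mbd2*-/- array 30 (*Ccl5* 10.76). Of the 7 markers, 5 to 6 were detected on each cDC1 array. *Cd3d*, *Cd3e*, *Cd3g* and *Lck* were higher in cDC1s than in monocytes (4 of 5 tested) and than in macrophages (4 of 6 tested), while *Cd2* (-1.03, adjusted p = 0.000554) and *Cd4* (-1.56, adjusted p = 6.09e-08) were lower than in macrophages. The natural killer sums had the same order over these arrays, at 1843 on array 23, 1614 on array 28, 1064 on array 27, 839.6 on array 26 and 680.6 on array 30. The epithelial sums were also highest on arrays 23, 27 and 28 (15790, 10150 and 9911), compared with 4199 on array 26 and 4928 on array 30. The part of these cells in the *Ccl5* values was not tested. In WT monocytes, arrays 4 and 5, with *Ccl5* at 12.24 and 11.70, had T cell sums of 524.4 and 521.7, whereas arrays 1 to 3, with *Ccl5* at 10.21 to 11.06, had sums of 262 to 347.3. The *Mbd2*-/- monocyte arrays did not follow this, with *Ccl5* at 11.34 to 12.02 and T cell sums of 304.1 to 349.

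**Figure D3:**
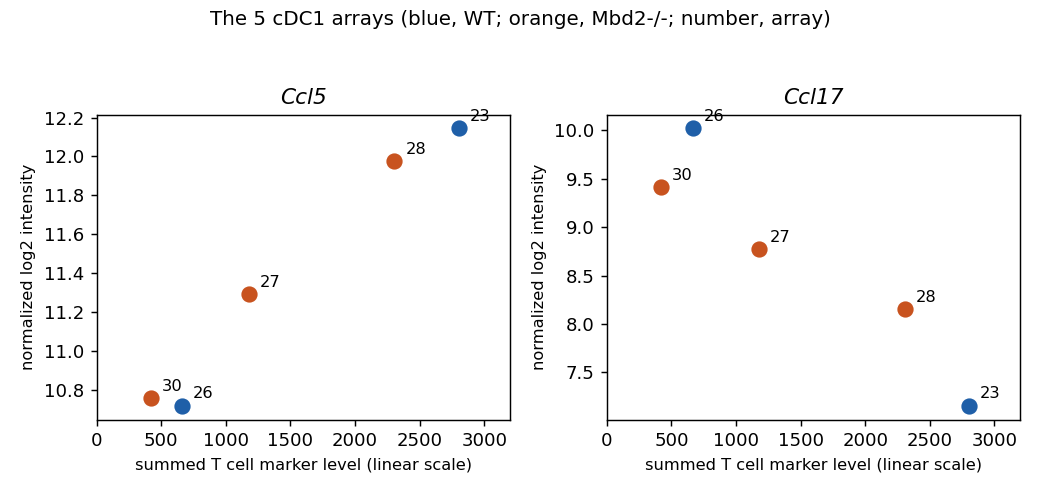
The 5 cDC1 arrays, with the summed linear value of the 7 T cell marker probes on the x axis and the normalized log2 intensity on the y axis, for *Ccl5* and *Ccl17*; each point is 1 array, labelled by its number and coloured by genotype. *Ccl5* is highest (12.14 and 11.97) on the arrays with the highest T cell sums (2802 and 2305), and *Ccl17* is lowest on the same arrays (7.16 and 8.15).

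The ligands of Ccr1 were high in monocytes and macrophages and low in cDC1s. *Ccl9* (macrophage inflammatory protein 1 gamma) ran from 12.34 to 13.45 in monocytes (median 12.92) and from 12.47 to 13.37 in macrophages (median 12.97), while the cDC1 arrays read 8.51 and 7.55 in WT and 8.81, 8.38 and 7.89 in *Mbd2*-/-. The highest cDC1 array, at 8.81, lay far below the lowest of all the others, at 12.34. *Ccl9* was 27.2-fold lower in cDC1s than in monocytes (log2 difference -4.77, SE 0.15, adjusted p = 1.88e-17) and 27.4-fold lower than in macrophages (-4.78, SE 0.15, adjusted p = 2.13e-17). Within column sets the cDC1 array differed by -4.55 and -5.32 against monocytes and by -4.14 and -4.61 against macrophages. Between macrophages and monocytes the difference was 0.01, with a 95% interval of -0.25 to 0.27 (adjusted p = 0.963).

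*Ccl6*, whose promoter window is printed beside that of *Ccl9* above, showed the same pattern at a smaller step. It ran from 9.09 to 10.12 in monocytes (median 9.78) and from 8.89 to 10.64 in macrophages (median 10.01), and read 6.36 and 6.01 in WT and 6.43, 6.40 and 5.76 in *Mbd2*-/- cDC1s. It was 11.5-fold lower in cDC1s than in monocytes (log2 difference -3.52, SE 0.21, adjusted p = 1.61e-12) and 13.6-fold lower than in macrophages (-3.76, SE 0.21, adjusted p = 5.38e-13). Within column sets these differences were -3.34 and -3.72 and -3.41 and -3.66. Between macrophages and monocytes the difference of 0.24 did not pass (adjusted p = 0.294), and it was 0.38 (adjusted p = 0.0233) without the low WT macrophage array 12 (8.89).

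*Ccl17* was the tested member that was highest in cDC1s. It ran from 5.66 to 7.94 in monocytes (median 5.91) and from 5.69 to 8.18 in macrophages (median 6.69), and the cDC1 arrays read 7.16 and 10.02 in WT and 8.77, 8.15 and 9.42 in *Mbd2*-/-. The WT pair was the widest apart of any member in cDC1s, and its lower array fell within the range of both other populations. *Ccl17* was 5.66-fold higher in cDC1s than in monocytes (log2 difference 2.50, SE 0.37, adjusted p = 4.92e-06) and 3.73-fold higher than in macrophages (1.90, SE 0.37, adjusted p = 0.000163). Without WT array 26 (10.02) the difference from macrophages was 1.19 (adjusted p = 0.00810), and without WT array 23 (7.16) it was 2.62. Within column sets the difference from monocytes was 1.13 and 3.69, and that from macrophages 1.96 and 1.39. The lowest *Ccl17* values in cDC1s were on the arrays with the highest T cell and natural killer sums, whose part was not tested.

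Between macrophages and monocytes, *Ccl17* differed by 0.60 (adjusted p = 0.122). This rested in part on WT monocyte array 5, which at 7.94 was the highest of the monocytes. Without that array the difference was 0.78 (adjusted p = 0.0313). *Ccl22*, the other ligand of Ccr4 and its near neighbour on chromosome 8, was at or near background in all populations, and its highest value, 5.33, was on *Mbd2*-/- cDC1 array 27.

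The second set of comparisons asked whether *Mbd2* deficiency altered the ligands within each population. By limma, 0 of 8 members passed in monocytes, 0 of 8 in macrophages and 0 of 9 in cDC1s, where 1.85%, 5.38% and 6.75% of all genes tested passed. At an unadjusted p under 0.05 there were 1, 3 and 2 members, against 14.4%, 23.1% and 24.0% of all genes. The WT and *Mbd2*-/- arrays did not overlap for 1 member in monocytes (*Ccl9*), 2 in macrophages (*Ccl9* and *Ccl17*) and 2 in cDC1s (*Ccl3* and *Ccl4*), where 5.12%, 5.21% and 32.1% of all genes did not overlap. The median difference over the members tested was -0.23 in monocytes, -0.10 in macrophages and -0.09 in cDC1s, and over all genes -0.03, -0.08 and 0.05. The shares of all genes that passed rest on a spread shared over the 6 groups. With each cell type fitted alone, 0 probes passed in cDC1s, in place of 1179, and 77 in macrophages, in place of 952. In monocytes 321 passed, in place of 291.

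**Figure D4:**
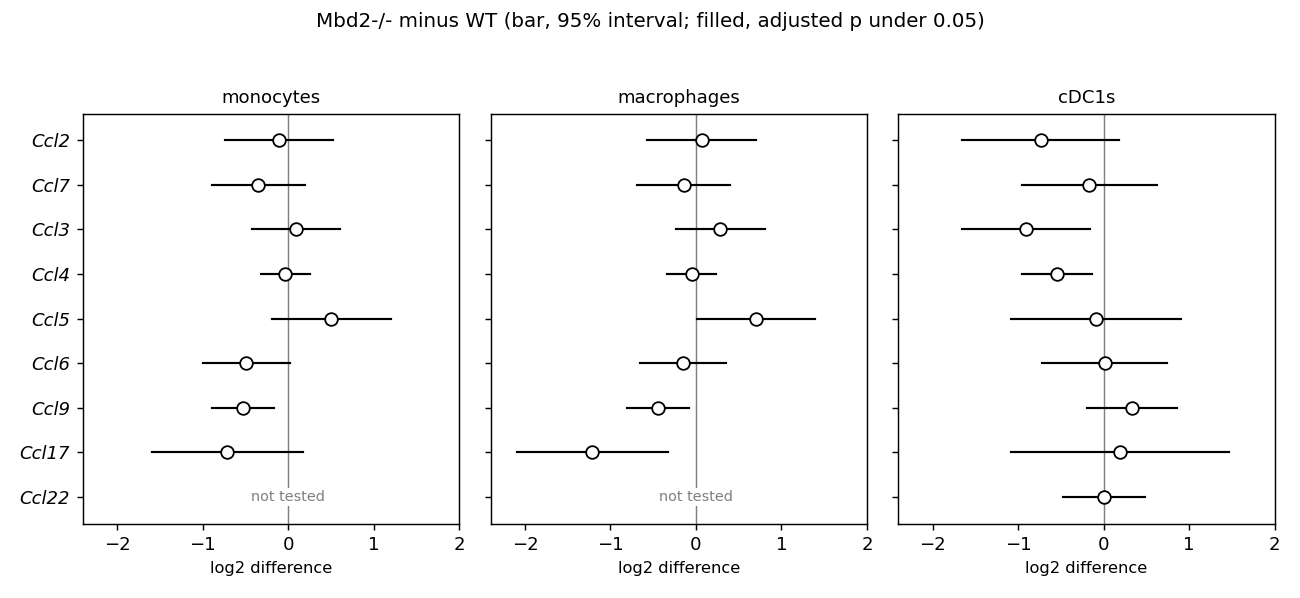
Log2 difference of *Mbd2*-/- minus WT for each CC chemokine (points, with bars for the 95% interval; filled where the adjusted p was under 0.05), with 1 panel per cell type. No point is filled; *Ccl9* lies at -0.53 in monocytes and -0.44 in macrophages, *Ccl17* at -1.21 in macrophages, and *Ccl3* at -0.91 in cDC1s, and the cDC1 intervals are the widest.

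*Ccl9* was the member whose genotypes did not overlap in both monocytes and macrophages. In monocytes it read 13.45, 13.43, 13.35, 12.96 and 12.94 in WT and 12.90, 12.75, 12.80, 12.70 and 12.34 in *Mbd2*-/-. In macrophages it read 12.98, 13.20, 13.15, 13.37 and 13.25 in WT and 12.47, 12.91, 12.96, 12.64 and 12.77 in *Mbd2*-/-. Every *Mbd2*-/- array thus lay below every WT array of its cell type, although the nearest arrays were 12.94 against 12.90 in monocytes and 12.98 against 12.96 in macrophages. The difference was -0.53 in monocytes (SE 0.18, 95% interval -0.89 to -0.16, limma adjusted p = 0.141) and -0.44 in macrophages (SE 0.18, limma adjusted p = 0.134). Within the 2 column sets the monocyte difference was -0.89 and -0.13, and the macrophage difference -0.40 and -0.53, so the size was uneven between the column sets of monocytes. With array weights, the monocyte difference passed (-0.56, adjusted p = 0.0215).

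*Ccl17* in macrophages had the largest genotype difference of any member. It read 7.66, 6.72, 7.29, 7.10 and 8.18 in WT and 6.64, 5.69, 6.19, 6.65 and 5.72 in *Mbd2*-/- macrophages. The groups did not overlap, with 6.72 and 6.65 as the nearest arrays. The difference was -1.21 (SE 0.43, 95% interval -2.10 to -0.33, limma adjusted p = 0.0875), and it was -1.04 and -1.46 within the 2 column sets. In monocytes *Ccl17* read 5.85, 5.85, 6.42, 6.63 and 7.94 in WT and 5.70, 5.66, 5.73, 6.08 and 5.96 in *Mbd2*-/-, and the difference was -0.71 (adjusted p = 0.490). That difference was -0.02 and -1.59 within the 2 column sets, and -0.36 without WT monocyte array 5. In cDC1s it was 0.19 with a 95% interval of -1.09 to 1.47 (limma adjusted p = 0.884). In *Mbd2*-/- macrophages, 2 of 7 listed cDC2 and mature dendritic cell markers were lower past the test and 1 was higher. In monocytes, 2 of 7 were lower and 0 higher. Of cDC1 markers, 1 of 6 was lower in macrophages and 1 of 5 in monocytes, with 0 higher. Over all genes, 5.38% passed in macrophages and 1.85% in monocytes. The summed cDC2 list overlapped in macrophages, at 19400 to 21700 in WT and 18100 to 21500 in *Mbd2*-/-. The part of such cells in *Ccl17* was not tested.

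*Ccl5* differed in the other direction. It read 11.18, 10.77, 10.63, 11.76 and 11.59 in WT macrophages and 11.81, 11.86, 11.62, 12.17 and 11.99 in *Mbd2*-/- macrophages, which overlapped. The difference was 0.70 (SE 0.33, 95% interval 0.01 to 1.39, limma adjusted p = 0.203), but 1.22 within 1 column set and 0.09 within the other. In monocytes it was 0.51 (adjusted p = 0.542) and changed sign between the column sets, at 1.41 and -0.55. The summed T cell markers overlapped between the macrophage groups, at 390.3 to 620.6 in WT and 362.1 to 493.1 in *Mbd2*-/- macrophages. Natural killer sums went the other way from *Ccl5*. They were 252.6 to 372.1 in WT and 178.5 to 269.6 in *Mbd2*-/- macrophages, which overlapped. In monocytes they were 218.8 to 465.8 in WT and 168.5 to 217.9 in *Mbd2*-/-, without overlap. The part of these cells in the genotype difference of *Ccl5* was not tested.

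In cDC1s, *Ccl3* and *Ccl4* were lower on all 3 *Mbd2*-/- arrays than on both WT arrays. *Ccl3* read 10.30 and 9.30 in WT and 8.86, 8.97 and 8.85 in *Mbd2*-/-, a difference of -0.91 (SE 0.36, 95% interval -1.66 to -0.16, limma adjusted p = 0.124). *Ccl4* read 13.01 and 12.76 against 12.52, 12.35 and 12.16, a difference of -0.54 (SE 0.20, limma adjusted p = 0.0945), and its dimmer probe gave -0.91 (adjusted p = 0.0607). For *Ccl3* the size rested on WT array 23. Without WT array 26 the difference was -1.41 and passed (adjusted p = 0.0380), and without array 23 it was -0.41. WT and *Mbd2*-/- cDC1 arrays never shared a column set. Genotype and column position thus cannot be told apart for these or any other genotype values of cDC1s, including the interactions below.

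The other members differed by -0.49 to 0.29 between genotypes in monocytes and macrophages. *Ccl6* in monocytes had the largest of these (-0.49, adjusted p = 0.382), with -0.79 and -0.24 within column sets. *Ccl2* and *Ccl7* differed by -0.11 and -0.35 in monocytes and by 0.07 and -0.14 in macrophages. The other *Ccl7* probe gave larger differences, -0.56 in monocytes (limma unadjusted p = 0.0163, adjusted p = 0.220) and -0.40 in macrophages (adjusted p = 0.265). Their intervals in cDC1s were wide, with -0.74 for *Ccl2* (adjusted p = 0.320) and -0.17 for *Ccl7*. *Ccl22* was tested in cDC1s alone and differed by 0.0017 (adjusted p = 0.997).

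Whether the genotype difference itself varied between populations was tested as an interaction. By limma, 0 of 8 members passed between macrophages and monocytes, and 0 of 9 passed for cDC1s against monocytes and for cDC1s against macrophages, where 0.0290%, 0.899% and 6.33% of all genes passed. At an unadjusted p under 0.05 there were 0, 3 and 3 members, against 6.98%, 16.1% and 22.2% of all genes. With those cell types fitted alone, 49 probes passed for cDC1s against macrophages, in place of 1544. For *Ccl3* the effect in cDC1s minus that in macrophages was -1.20 (SE 0.44, adjusted p = 0.0967), and for *Ccl17* it was 1.41 (adjusted p = 0.266). *Ccl9* gave 0.86 for cDC1s minus monocytes (adjusted p = 0.163) and 0.77 for cDC1s minus macrophages (adjusted p = 0.129). Without WT cDC1 array 26, *Ccl17* (2.84, adjusted p = 0.0132) and *Ccl3* (-1.70, adjusted p = 0.0303) passed in cDC1s against macrophages. Genotype differences that missed the threshold in 1 population were therefore not shown to differ from those in another.

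Chemokine receptors were taken from a list, of which 12 genes, all with a probe, are reported, and 5 to 6 of these were detected on enough arrays for a test in each comparison of populations or genotypes. Between macrophages and monocytes 1 of 5 was higher (22.7% of all genes tested). Between cDC1s and monocytes 2 of 5 were higher and 1 lower (27.3% and 26.6%), and between cDC1s and macrophages 1 of 6 was higher and 1 lower (26.0% and 27.1%). *Ccrl2*, a receptor-like protein that presents chemoattractants without signalling, was lower in cDC1s than in monocytes (-2.44, adjusted p = 4.51e-12) and than in macrophages (-2.72, adjusted p = 6.83e-13).

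*Ccr7*, the receptor that guides dendritic cells to lymph nodes and binds none of the members, read 9.35 to 10.44 in WT and 9.54 to 11.15 in *Mbd2*-/- cDC1s and 8.04 to 9.12 on all monocyte and macrophage arrays. It was higher in cDC1s than in monocytes (1.64, adjusted p = 5.15e-07) and than in macrophages (1.32, adjusted p = 1.22e-05). *Ccr6* was higher in macrophages than in monocytes (0.82, adjusted p = 0.0165), and the atypical receptor *Ackr4* was higher in cDC1s than in monocytes (0.49, adjusted p = 0.0487). *Ccr1*, the receptor of *Ccl6* and *Ccl9*, was detected on none of the 25 arrays. *Ccr2*, that of *Ccl2* and *Ccl7*, was detected on 1 monocyte and 2 macrophage arrays. *Ccr4*, that of *Ccl17* and *Ccl22*, was near background on most arrays. Lack of signal from these probes does not show that the receptor transcripts were absent.

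**Figure D5:**
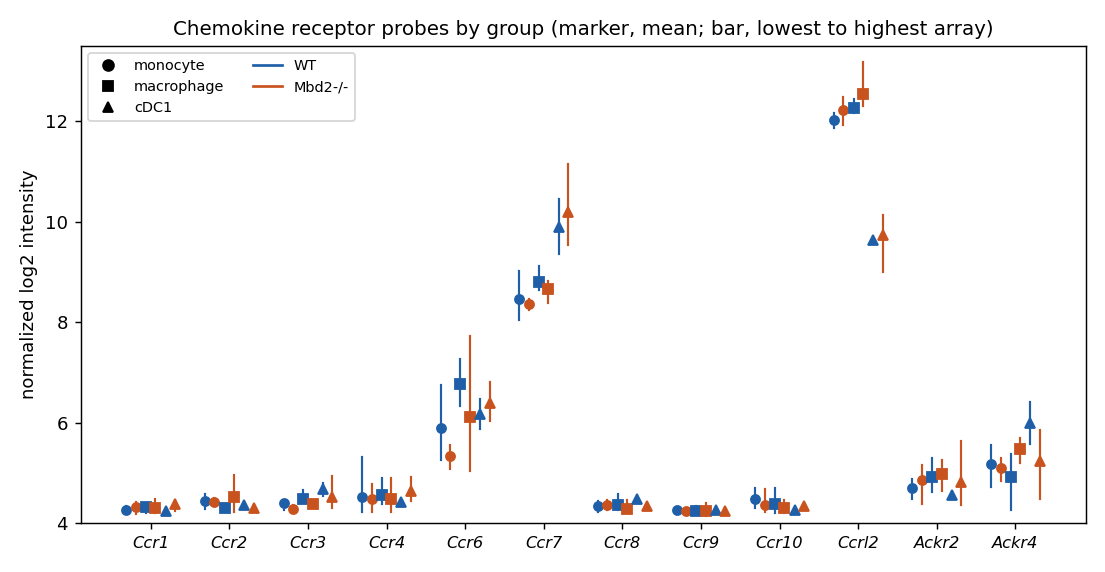
Normalized log2 intensity of 12 chemokine receptors by cell type (marker shape) and genotype (colour); each marker is a group mean and its bar runs from the lowest to the highest array. *Ccr7* is highest on the cDC1 arrays (9.35 to 11.15), *Ccrl2* is lower there than in the other populations, and most other receptors lie near background.

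With genotype, by limma, 0 of 5 of these receptors passed in monocytes, 0 of 5 in macrophages and 0 of 6 in cDC1s, where 1.85%, 5.38% and 6.75% of all genes passed. At an unadjusted p under 0.05 there were 0, 1 and 1, against 14.4%, 23.1% and 24.0% of all genes.

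Of 10 further CC ligands on a list, 9 had a probe. *Ccl27a* was lower in *Mbd2*-/- than in WT macrophages (-0.56, limma adjusted p = 0.0118), 1 of 6 tested there. In monocytes 0 of 7 passed and in cDC1s 0 of 5. Of all genes, 5.38% passed in macrophages, 1.85% in monocytes and 6.75% in cDC1s. At an unadjusted p under 0.05 there was 1 ligand in each population, against 23.1%, 14.4% and 24.0% of all genes. For *Ccl27a* the effect in cDC1s minus that in macrophages passed (1.00, limma adjusted p = 0.0102), 1 of 8 tested, where 6.33% of all genes passed. Genotype and column position cannot be told apart in the cDC1 part of this value. Single-gene values under the alternatives were taken for the members only. Between populations, 2 of 7 were lower in cDC1s than in monocytes and 2 of 6 than in macrophages (26.6% and 27.1% of all genes). *Ccl27a* was higher in macrophages than in monocytes (0.29, limma adjusted p = 0.00905), 1 of 6 tested (22.7% of all genes were higher). *Ccl24* (eotaxin 2, an eosinophil chemoattractant) was lower in cDC1s than in monocytes (adjusted p = 3.56e-09) and macrophages (adjusted p = 2.02e-08), with no detection on any cDC1 array. *Ccl25* was lower in cDC1s by -0.61 and -0.55 (adjusted p = 0.00193 and 0.00444).

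The genes whose pattern over the 25 arrays was most like that of each member were named by Pearson's r among 14381 candidates, as a description in which the cell types drive the values. *Ccl9* was closest to *Tnfsf12-tnfsf13* (r = 0.987), *Cebpb* (0.987) and *Cd14* (0.985), and *Ccl6* to *Zc3h12a* (0.973), *App* (0.971) and *Cd93* (0.967). *Ccl7* was closest to *Cd163* (0.976), *Folr2* (0.975) and *Retnla* (0.968). *Ccl2* and *Ccl3* both had *Ddx1* first (0.936 and 0.933), followed by *Mcoln2* (0.930) and *Lpl* (0.929) for *Ccl2* and by *E230029F23Rik* (0.914) and *Camk1* (0.911) for *Ccl3*. *Ccl4* was closest to *Zfp36l1* (0.894), *Anxa5* (0.883) and *Zfp36* (0.878).

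*Ccl17* was closest to *LOC384104* (0.887), *Rrm1* (0.875) and *Ccr7* (0.873), so that among its nearest patterns was the receptor that was also higher in cDC1s. The likeness was weaker for *Ccl5*, whose nearest patterns were *Psmd10* (0.726), *H2-T23* (0.654) and *Serpina3f* (0.631). *Ccl22*, at background on most arrays, had *Dpy19l3* (0.789), *Polh* (0.762) and *Pou5f1* (0.762). Within groups, the lowest correlation of any pair of members was between *Ccl9* and *Ccl17* (r = -0.72 after removal of the group means, over 25 arrays), the members that differed most between cDC1s and the other populations in opposite directions.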

How the data were processed

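Per the labels, transcripts were measured on Illumina MouseWG-6 BeadChips. The authors deposited linear intensity values, the mean bead brightness of each probe, neither normalized nor background subtracted, and the deposited table holds a detection p-value beside each. The submitters' processing notes name lumi and limma, with no version, and the methods name limma and adjustment within a comparison. The table's 3 signal columns of no sample were not used. Here the 25 colon arrays were background corrected (nec, normexp with 936 negative control probes, offset 16), quantile normalized and taken to log2. The deposited values are not log2, so all log2 values were computed here. The tools were R 4.3.3, limma 3.58.1 and the package data.table (version 1.17.8), and Python 3.11.15 with Biopython 1.88, pandas 2.3.3 and matplotlib 3.10.9.

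A limma model of 6 groups (cell type and genotype) was fitted for each of 9 comparisons, over the probes tested in it. Tests were two-sided, with Benjamini-Hochberg adjustment over the same probes. Probes entered a comparison if detected (p under 0.05) on a number of its arrays no lower than the size of its smaller group. The fit was also run on simulated data with independent arrays, so effects of column sets or pools were not examined there. Similar genes were the 3 with the highest r per member among those detected on at least 5 arrays. Of 36692 listed accessions, 27655 matched the RefSeq table of GRCm38.p6, which updated symbols. Promoter windows were RefSeq's. The members and all lists were chosen with earlier results of these data known. 1 listed gene is not reported here. The number of arrays limits the precision. Alternatives were other background corrections, scalings, filters, thresholds, array weights, blocks and each array left out. Differences of cDC1s from the other cells within sets of 6 table columns were added after the data were seen.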

Additional observations from a re-analysis of the deposited data

Results flagged for a closer look

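Of 44 sets of 4 to 10 arrays checked, each a probe in a group, 2 held an array far from the others by Dixon's test, which chance gives about 1 time in 20. *Ccl3* read 11.19 on WT monocyte array 1, where the other WT monocyte arrays read 10.35 to 10.50. *Ccl22* read 4.575 on *Mbd2*-/- macrophage array 16, which lies near background.

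The comparisons left out 2 arrays of splenic CD4 T cells, 1 per genotype and so with no test. Unlike the colon arrays, these are labelled 6 weeks after transfer and carry no DSS percentage. Several members were detected on them when all 27 arrays were normalized together. *Ccl5* was bright in both, at 13.13 in WT and 13.18 in *Mbd2*-/-. *Ccl4* read 10.25 in WT and 11.4 in *Mbd2*-/- by its brighter probe and 8.321 and 10.02 by the dimmer. *Ccl3* read 6.531 in WT and 8.586 in *Mbd2*-/-. *Ccl6* (4.781 and 4.757) and *Ccl9* (5.153 and 5.045) were detected at values just above background, and *Ccl2*, *Ccl7*, *Ccl17* and *Ccl22* were not detected there.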

How the results depend on the processing

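No paired analysis was possible because the numbers in the labels are unique to each array. The counts of members past the test between cell types ranged from 3 to 5 for macrophages against monocytes and from 6 to 8 for the cDC1 comparisons over all alternatives. The count of 8 arose for cDC1s against macrophages with single arrays left out. *Ccl5* passed in none of those fits, so that count included *Ccl22*, which is near background and was not tested in the main fit. The count for genotype stayed at 0 in macrophages under every alternative. In monocytes it was 1 with array weights (*Ccl9*). In cDC1s it was 0 to 1, and for the interaction of cDC1s with macrophages 0 to 2, over single arrays left out, with the higher values without WT array 26. *Ccl17* passed between macrophages and monocytes with those cell types fitted alone (0.62, adjusted p = 0.0467) and with array weights (0.68, adjusted p = 0.0273).

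Median scaling shifted the median of all probes, from -0.02 to -0.26 for genotype in monocytes, from 0.03 to -0.37 for genotype in cDC1s and from -0.01 to -0.28 for cDC1s against either population, and its values are relative to that. The probes that passed were then 16 higher of 666 for genotype in cDC1s, in place of 606 of 1179, and 22 of 77 in monocytes, in place of 138 of 291. In macrophages they were 152 of 186, in place of 521 of 952. For cDC1s they were 1862 of 8025 against monocytes, in place of 4839 of 9376, and 1794 of 8228 against macrophages, in place of 4955 of 9601.

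Several differences near 0 changed sign. With median scaling these were genotype in monocytes for *Ccl3* (-0.20), in macrophages for *Ccl2* (-0.023) and in cDC1s for *Ccl17* (-0.46), *Ccl22* (-0.11), *Ccl6* (-0.52) and *Ccl9* (-0.29), and macrophages against monocytes for *Ccl9* (-0.090). With cyclic loess they were genotype for *Ccl4* in monocytes (0.035) and macrophages (0.047) and for *Ccl22* in cDC1s (-0.10). With array weights they were genotype in monocytes for *Ccl2* (0.017) and *Ccl4* (0.023) and in macrophages for *Ccl2* (-0.063), and cDC1s against monocytes for *Ccl5* (0.088). The cause was not tested.

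Leaving out single arrays, the genotype difference in cDC1s ran from -1.24 to 1.62 for *Ccl17*, from -0.80 to 0.62 for *Ccl5*, from -0.44 to 0.44 for *Ccl22*, from -0.16 to 0.23 for *Ccl6*, from -0.15 to 0.81 for *Ccl9* and from -0.60 to 0.37 for *Ccl7*. In monocytes it ran from -0.11 to 0.078 for *Ccl4* and from -0.039 to 0.26 for *Ccl3*, and in macrophages from -0.21 to 0.32 for *Ccl2*. Between cell types, *Ccl5* ran from -0.37 to 0.34 for cDC1s against monocytes and from -0.51 to 0.20 for cDC1s against macrophages, and *Ccl9* from -0.036 to 0.045 for macrophages against monocytes. The interaction of *Ccl17* ran from -0.53 to 2.34 for cDC1s against monocytes and from -0.026 to 2.84 for cDC1s against macrophages. With 2 WT and 3 *Mbd2*-/- cDC1 arrays, leaving out 1 WT array leaves a single array that is assumed to vary like the other groups. Values near the lowest detected signal, as for *Ccl22*, have no reliable order.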
